A study of Mus musculus with 8 samples.

Results

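The genes described here are 10 genes of NF-kB feedback and the tumour necrosis factor (TNF) response in mouse liver: Nfkbia, Nfkbiz, Tnfaip3, Nfkb1, Nfkb2, Relb, Tnfrsf1a, Tnfrsf12a, Icam1 and Vcam1. Members were the probes whose platform gene symbol is one of these names. Of the 10 genes, 9 had a probe, with 11 probes among the 25697 on the array, and Nfkb1 was not analysed here. A probe was called detected on an array where its detection p, set against the negative control beads, was under 0.01, and was tested where every array of at least 1 group detected it. By that filter 6 members (8 probes) were tested, among 7257 tested genes (10128 probes) of 16593 genes with a probe. Tnfaip3, Nfkb2 and Relb had a probe and did not pass.

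Total RNA of whole liver was hybridised to 8 Illumina bead arrays. All mice were Balb/c and 2 months old. There were 3 arrays of IL-4/IL-13-/- livers after carbon tetrachloride (CCl4), 3 of wild-type livers after CCl4, 1 of an IL-4/IL-13-/- liver after vehicle and 1 of a wild-type liver after vehicle. CCl4 is a liver poison: cytochrome P450 converts it to a reactive radical, and hepatocytes near the central vein die. The knockout mice lack Il4 and Il13, the cytokine genes of type 2 immunity, in every cell and not in the liver alone. The sources used here give no dose, route, time after injection or sex. They also do not state whether each array stands for a mouse of its own, so p-values below measure a spread that may be technical.

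NF-kB is a family of dimeric transcription factors that inhibitory IkB proteins hold in the cytoplasm. TNF, interleukin-1 and ligands of Toll-like receptors activate a kinase complex that marks the IkB protein for destruction, and NF-kB then enters the nucleus. Several of its target genes encode inhibitors of the same pathway, which makes a negative feedback loop. Other targets are adhesion molecules and chemokines that bring leukocytes into the tissue. In liver the pathway is known for the early response to injury, the protection of hepatocytes from death by TNF and the start of regeneration.

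Promoter sequences show how far the members share a textbook NF-kB element. RefSeq promoters of GRCm38.p6, a C57BL/6J genome, were available for 6 of the 10 members, and the 250 bases before each start were searched on both strands for the 10-base kB consensus. A match stood in 5 of 9 member promoters, from 3 members (Nfkbia, Tnfaip3 and Nfkb2), and in 3.9% of the 32851 promoters of all genes. The promoters of Nfkbia, Icam1 and Tnfrsf12a are printed because their genes are the feedback inhibitor that was lower after CCl4 and a pair of members that were higher. Capitals mark the match, and a stretch without capitals says only that these letters are not in this window.
Nfkbia (chr12:55492648-55492897, minus strand, 250 bases before the start): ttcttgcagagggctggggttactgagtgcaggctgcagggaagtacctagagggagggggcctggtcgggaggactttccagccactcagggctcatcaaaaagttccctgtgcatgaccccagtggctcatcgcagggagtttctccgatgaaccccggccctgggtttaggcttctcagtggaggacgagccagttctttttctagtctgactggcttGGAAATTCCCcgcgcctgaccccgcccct
Icam1 (chr9:21015690-21015939, plus strand, 250 bases before the start): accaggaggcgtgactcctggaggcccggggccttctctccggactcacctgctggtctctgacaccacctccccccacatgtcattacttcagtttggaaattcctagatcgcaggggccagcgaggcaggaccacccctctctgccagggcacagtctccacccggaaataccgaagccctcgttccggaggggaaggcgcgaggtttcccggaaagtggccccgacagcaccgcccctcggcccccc
Tnfrsf12a (chr17:23677450-23677699, minus strand, 250 bases before the start): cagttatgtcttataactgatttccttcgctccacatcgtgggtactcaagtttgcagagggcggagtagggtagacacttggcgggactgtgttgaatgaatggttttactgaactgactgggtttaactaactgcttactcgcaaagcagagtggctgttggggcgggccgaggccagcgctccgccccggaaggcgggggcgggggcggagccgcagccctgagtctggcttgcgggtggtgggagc
The Nfkbia match began 29 bases before the start. The upstream start of Tnfaip3 had 2 matches, which began 125 and 12 bases before it, and at least 2 matches stood in 0.493% of all promoters.

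Of the 6 tested members, 4 had higher values on each of the 6 CCl4 arrays than on either vehicle array, as did 19% of all tested genes. They were Tnfrsf12a, Nfkbiz, Vcam1 and Icam1. The same 4 were called higher below from the same arrays, so the counts are not separate evidence. Averaged over the genotypes, Tnfrsf12a was 17.1-fold, Vcam1 3.21-fold and Icam1 2.42-fold higher after CCl4. Nfkbiz, with the knockout vehicle array at its lowest detected value, was at least 3.77-fold higher. Nfkbia, which encodes the IkB protein of the feedback loop, was lower after CCl4 by 1.44-fold. Tnfrsf1a, which encodes the main TNF receptor of most cells, did not pass the test. In this contrast, 4 members were called higher and 1 lower by limma at an adjusted p under 0.05, where 18.9% of all tested genes were called higher and 18.6% lower. The remaining members comprise 1 tested without a call, 3 that did not pass the detection filter and 1 not analysed.

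**Figure D1:**
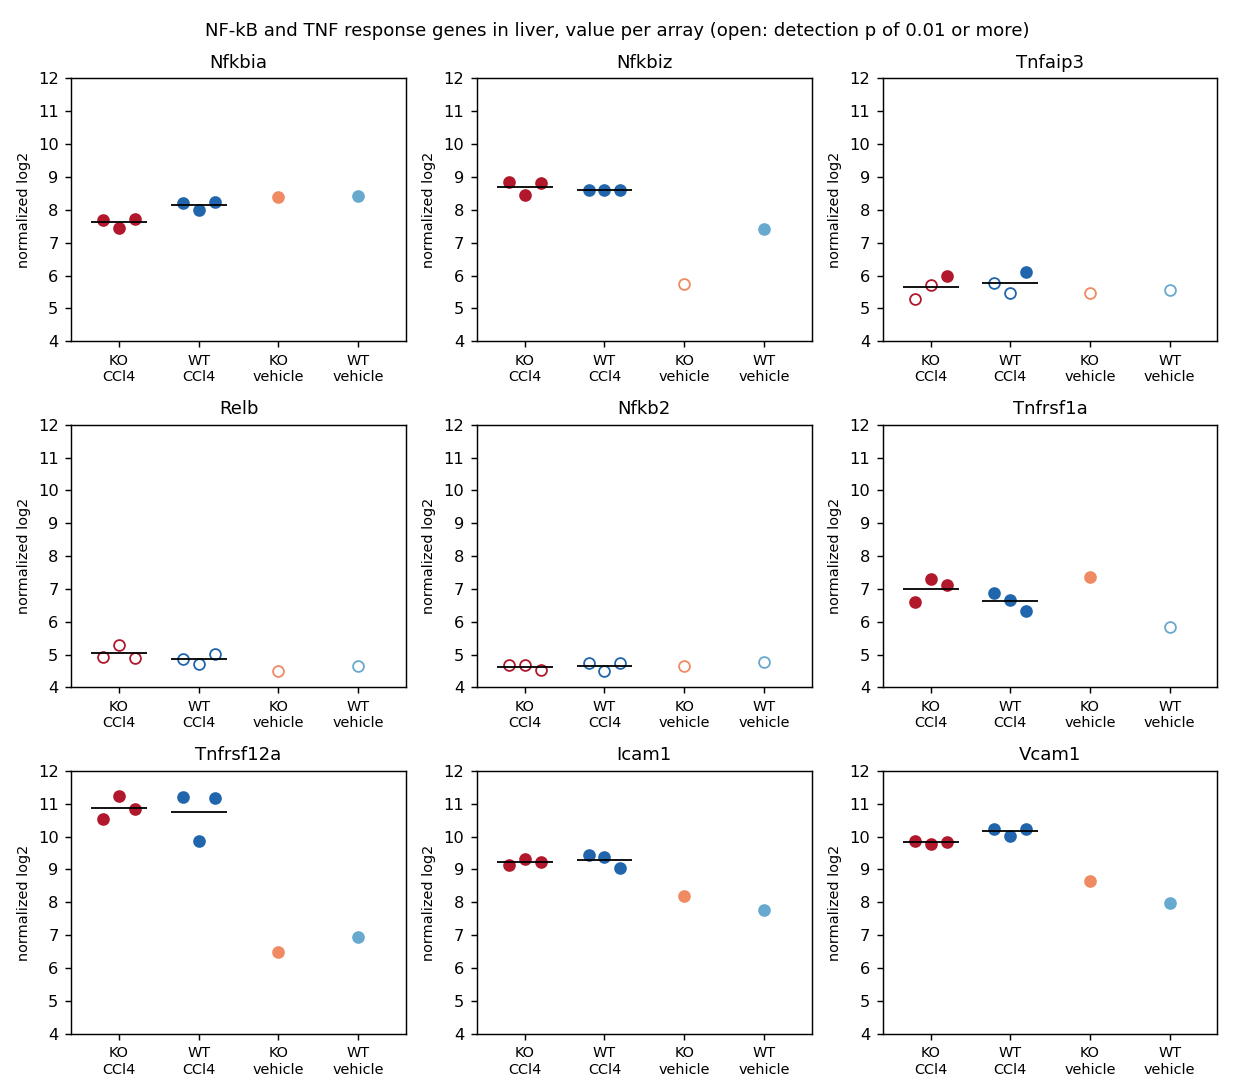
Normalized log2 intensity (vertical axes, 4 to 12) of the 9 members with a probe, with 1 panel per gene and 1 point per array, for IL-4/IL-13-/- (KO) and wild-type (WT) livers after CCl4 and after vehicle. Filled points had a detection p under 0.01, horizontal bars are means of 3 arrays, and the Tnfrsf1a panel holds the probe with the highest mean. Tnfrsf12a, Nfkbiz, Vcam1 and Icam1 lie higher on every CCl4 array than on either vehicle array, while Relb and Nfkb2 have no filled point.

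Values per array below are normalized log2 intensities in replicate order, and differences between groups are log2 differences with their standard error (SE). The CCl4 arrays supplied the spread, and the same spread was assumed for the single vehicle arrays. All 6 tested members were detected on all 6 CCl4 arrays, and Nfkbia, Tnfrsf12a, Icam1 and Vcam1 were also detected on both vehicle arrays. Raw array medians were 63.6 to 66.9 in CCl4-treated knockout livers and 68.5 to 76.9 in CCl4-treated wild-type livers, against 60.9 on the knockout vehicle array and 66.6 on the wild-type vehicle array. In whole liver, fewer cells of a type and less RNA per cell cannot be told apart.

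Nfkbia encodes IkB-alpha, the inhibitor that NF-kB itself induces and that returns it to the cytoplasm. Its values were 7.71, 7.46 and 7.72 in CCl4-treated knockout livers, against 8.21, 7.98 and 8.24 in CCl4-treated wild-type livers. The vehicle arrays had 8.38 in the knockout and 8.43 in wild type. All CCl4 arrays of both genotypes lay below both vehicle arrays, as for 19.8% of all tested genes, and the knockout CCl4 arrays lay below all others. The mean response over genotypes was -0.52 ± 0.16 (SE, limma adjusted p = 0.0231). Within the knockout the response was -0.75 ± 0.22 (adjusted p = 0.0289), and within wild type -0.29 ± 0.22 (adjusted p = 0.371). The difference between these responses was -0.47 ± 0.32 (adjusted p = 0.438). The mean call was lost without knockout CCl4 replicate 2 (adjusted p = 0.0515) and without the knockout vehicle array, where the remaining wild-type response was -0.29 (adjusted p = 0.363). The knockout call was lost without CCl4 replicate 1 (adjusted p = 0.0508) or replicate 2 (adjusted p = 0.0811).

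Nfkbiz encodes IkB-zeta, a nuclear IkB protein that is induced by interleukin-1 and Toll-like receptor signals and helps to switch on a second wave of target genes. It had 8.85, 8.45 and 8.83 in CCl4-treated knockout livers, against 8.62, 8.59 and 8.62 in CCl4-treated wild-type livers. The knockout vehicle array had 5.76, with a detection p of 0.0263, and was not well above background, and the wild-type vehicle array had 7.43. The CCl4 arrays of the genotypes overlapped, while the vehicle arrays were 1.67 apart, with the knockout lower. In the knockout, Nfkbiz was at least 6.27-fold higher after CCl4 than after vehicle (limma adjusted p = 1.44e-05). This bound sets the CCl4 mean of 8.71 against 6.06, the lowest detected log2 value on the vehicle array. In wild type the response was 1.18 ± 0.23, or 2.26-fold (adjusted p = 0.00387). Without the knockout vehicle array, the mean response of 2.07 became the wild-type response alone, 1.17.

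Tnfaip3 encodes A20, a ubiquitin-editing enzyme that ends signalling from the TNF receptor. Its probe was detected on 2 of 8 arrays, replicate 3 of each CCl4 group. Values were 5.29, 5.71 and 5.97 in CCl4-treated knockout livers, against 5.78, 5.45 and 6.10 in CCl4-treated wild-type livers. The vehicle arrays had 5.48 in the knockout and 5.57 in wild type. The 4 groups overlapped near the detection limit, and without the filter no contrast called the gene (limma adjusted p = 0.687 for CCl4).

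Of the 3 listed genes for NF-kB subunits, Nfkb1 was not analysed and the other two had no value well above background. Nfkb2, which encodes p100, the precursor of p52 in the non-canonical arm, was not detected on any array, with a lowest detection p of 0.330. Relb, which encodes the partner of p52, was not detected on any array either, with a lowest detection p of 0.0589 on knockout CCl4 replicate 2. Its values reached 5.30 in CCl4-treated knockout livers and 5.02 in CCl4-treated wild-type livers, against 4.50 on the knockout vehicle array and 4.65 on the wild-type vehicle array. A probe that is not well above background sets no level, so neither gene is shown to be unexpressed.

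Tnfrsf1a encodes TNF receptor 1, whose death domain can signal to NF-kB or to cell death. It had 3 tested probes that disagreed. Probe ILMN_2469329, which had the highest mean, gave 6.60, 7.30 and 7.12 in CCl4-treated knockout livers, against 6.89, 6.65 and 6.34 in CCl4-treated wild-type livers. On the vehicle arrays it had 7.37 in the knockout and 5.84 in wild type, where it was not well above background. Probe ILMN_1241228 gave 6.25, 6.47 and 6.36 in CCl4-treated knockout livers, against 7.12, 6.73 and 6.72 in CCl4-treated wild-type livers, so its genotypes did not overlap while those of the first probe did. Its vehicle arrays had 7.17 in the knockout and 6.70 in wild type. The CCl4 groups of probe ILMN_2469333 ran between 6.35 and 6.68 in the knockout and between 6.48 and 6.96 in wild type.

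For the probe with the highest mean, the Tnfrsf1a response averaged 0.21 ± 0.21 over the genotypes (SE, limma adjusted p = 0.458). The other probes gave -0.33 ± 0.17 (ILMN_1241228, adjusted p = 0.148) and -0.02 ± 0.18 (ILMN_2469333, adjusted p = 0.949), so the direction depended on the probe. In the knockout only ILMN_1241228 passed the test, at -0.81 ± 0.24 (adjusted p = 0.0282), against -0.36 and -0.22 for the other probes. In wild type the first probe gave at least 1.41-fold without passing the test (adjusted p = 0.0780).

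Tnfrsf12a encodes Fn14, the receptor of the TNF family cytokine TWEAK, which is low in resting liver and known to rise on hepatocytes and progenitor cells after injury. Raw intensities were 1398, 2291 and 1682 in CCl4-treated knockout livers, against 2834, 1067 and 2352 in CCl4-treated wild-type livers. The vehicle arrays had 106 in the knockout and 151 in wild type. Every CCl4 array was thus several times brighter than either vehicle array, and the CCl4 groups overlapped. Normalized log2 values were 10.53, 11.23 and 10.83 in CCl4-treated knockout livers and 11.21, 9.86 and 11.18 in CCl4-treated wild-type livers, against 6.48 on the knockout vehicle array and 6.94 on the wild-type vehicle array. The response was 4.39 ± 0.46 in the knockout (21.0-fold, limma adjusted p = 0.000106) and 3.81 ± 0.46 in wild type (14.0-fold, adjusted p = 0.000203). The standard deviation (SD) was 0.35 among the knockout CCl4 arrays and 0.77 among the wild-type CCl4 arrays, where replicate 2 was low.

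Icam1 encodes ICAM-1, an endothelial and epithelial ligand of leukocyte integrins that TNF induces. It had 9.13, 9.31 and 9.23 in CCl4-treated knockout livers, against 9.44, 9.38 and 9.06 in CCl4-treated wild-type livers. The vehicle arrays had 8.20 in the knockout and 7.77 in wild type. The CCl4 groups overlapped, and both lay above both vehicle arrays. The response was 1.03 ± 0.23 in the knockout (2.04-fold, limma adjusted p = 0.00813) and 1.52 ± 0.23 in wild type (2.88-fold, adjusted p = 0.00088).

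Vcam1 encodes VCAM-1, the ligand of integrin alpha4beta1 on monocytes and lymphocytes. It had 9.87, 9.76 and 9.83 in CCl4-treated knockout livers, against 10.22, 10.02 and 10.24 in CCl4-treated wild-type livers. The vehicle arrays had 8.64 in the knockout and 7.97 in wild type. The knockout CCl4 arrays lay below all wild-type CCl4 arrays, while the order was the reverse on the single vehicle arrays. The response was 1.18 ± 0.21 in the knockout (2.26-fold, limma adjusted p = 0.00273) and 2.19 ± 0.21 in wild type (4.56-fold, adjusted p = 4.4e-05).

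Within the knockout, 4 members were called higher after CCl4 and 1 lower (Nfkbia), where 13% of all tested genes were called higher and 12.8% lower. Within wild type, 4 were called higher and 0 lower, where 12.4% of all tested genes were called higher and 11.6% lower. Both responses called the same 4 members higher. The median response of the 6 tested members was 1.10 in the knockout and 1.35 in wild type, where that of all tested genes was -0.01 and -0.02.

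**Figure D2:**
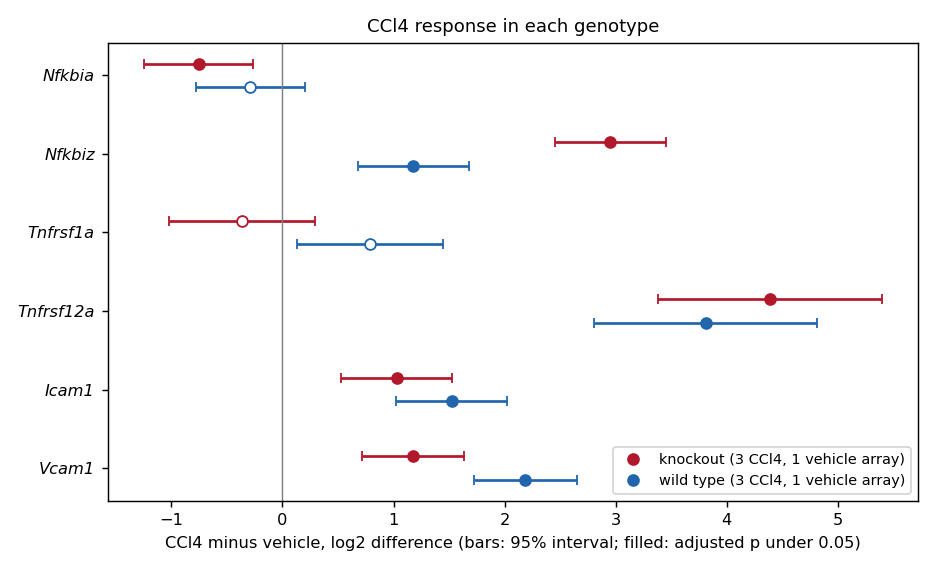
Log2 difference between CCl4 and vehicle arrays (horizontal axis) for the 6 tested members, in the knockout (red, upper of each pair) and in wild type (blue, lower), with 95% intervals from limma. Filled points had an adjusted p under 0.05, which Nfkbia reached in the knockout and Tnfrsf1a in neither genotype. The intervals of Nfkbiz and those of Vcam1 do not overlap between the genotypes. Nfkbiz had 2.95 in the knockout, whose vehicle array was not well above background, and 1.18 in wild type. Vcam1 had 1.18 in the knockout and 2.19 in wild type.

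The genotype comparison after CCl4 asked whether the livers without Il4 and Il13 differed once injured, with 3 arrays on each side. No member was called, with 0 higher and 0 lower by limma, where 2.89% of all tested genes were called higher and 3.6% lower. At an unadjusted p under 0.05 the counts were 2 members, Nfkbia and Vcam1, and 1830 of all tested genes. For both, the knockout arrays lay below all wild-type arrays, as for 16.3% of all tested genes, while 14% had all knockout arrays above. Nfkbia differed by -0.52 ± 0.16 (95% interval -0.86 to -0.17, limma adjusted p = 0.0740), and Vcam1 by -0.34 ± 0.15 (-0.67 to -0.01, adjusted p = 0.181). With median scaling of the arrays in place of quantile normalization, Nfkbia passed the test at -0.73 (adjusted p = 0.0168), and the median of all genes was then -0.17.

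Nfkbiz, Icam1, Tnfrsf12a and the brightest Tnfrsf1a probe overlapped between the genotypes after CCl4. Nfkbiz differed by 0.10 ± 0.16 (95% interval -0.25 to 0.45, limma adjusted p = 0.739). Icam1 differed by -0.07 ± 0.16 (-0.42 to 0.29, adjusted p = 0.833). These intervals leave room for a difference of up to 0.45 for Nfkbiz and down to -0.42 for Icam1. Tnfrsf12a differed by 0.11 ± 0.32 (-0.60 to 0.83, adjusted p = 0.854), a wider interval that leaves room for a difference of up to 0.83 on the log2 scale. Tnfrsf1a gave 0.38 ± 0.21 with the probe of highest mean (adjusted p = 0.292) and -0.49 ± 0.17 with ILMN_1241228 (adjusted p = 0.106), in opposite directions.

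**Figure D3:**
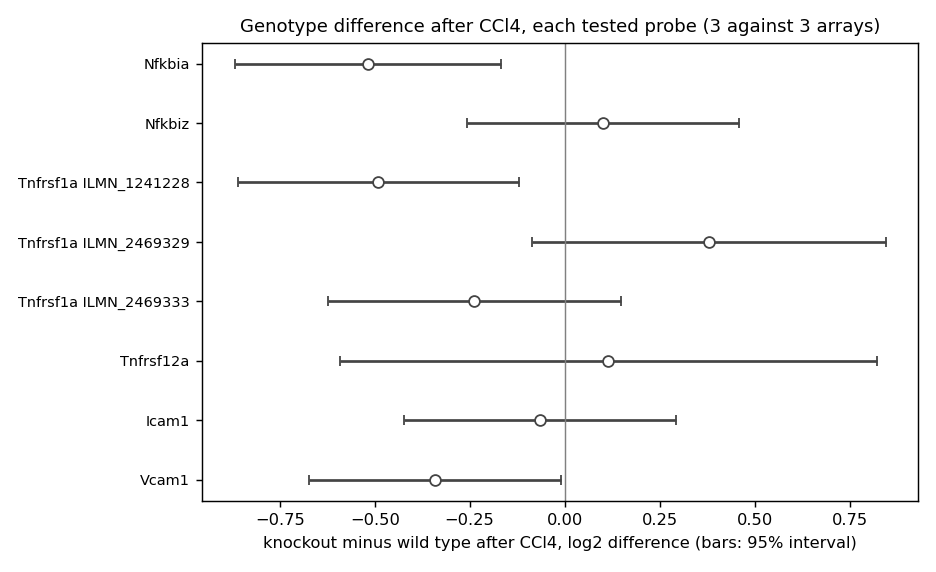
Log2 difference between knockout and wild-type livers after CCl4 (horizontal axis, 3 against 3 arrays) for each of the 8 tested probes, with 95% intervals from limma. All points are open because no probe had an adjusted p under 0.05, and the 3 Tnfrsf1a probes lie at 0.38, -0.24 and -0.49.

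The difference between the genotypes' responses was also tested, since it asks whether CCl4 moved a gene by unequal amounts. It was called for Nfkbiz alone among the members, 1 higher and 0 lower, where 0.179% of all tested genes were called higher and 0.179% lower. The Nfkbiz response was larger in the knockout by 1.77 ± 0.32 (limma adjusted p = 0.0487). With the knockout vehicle array set at its lowest detected value, the difference was 1.47, from 2.65 in the knockout and 1.18 in wild type. The call rests on a single vehicle array per genotype, and it was made in 5 of 14 alternative settings (adjusted p from 0.0196 to 0.111). It was lost without knockout CCl4 replicate 1 (adjusted p = 0.108), knockout CCl4 replicate 3 (0.0928) or wild-type CCl4 replicate 1 (0.103).

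For Vcam1 the knockout response minus the wild-type response was -1.01 ± 0.30, which did not pass the test (limma adjusted p = 0.123). Tnfrsf1a did not pass it with any probe, at -1.15 ± 0.42 for the brightest (adjusted p = 0.176), whose wild-type vehicle value was not well above background, and at -0.96 and -0.41 for the others. At an unadjusted p under 0.05 these differences counted 3 members, with Nfkbiz, and 1447 of all tested genes. Icam1 gave -0.50 ± 0.32 (adjusted p = 0.417) and Tnfrsf12a 0.58 ± 0.65 (adjusted p = 0.649).

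The vehicle pair, with 1 array per genotype, was compared by values, and no test was run on it. Nfkbiz was lower in the knockout by a log2 difference of -1.67, and Tnfrsf1a was higher by 1.53 with its brightest probe. In each of these a single array was not well above background. The other Tnfrsf1a probes, detected on both arrays, differed by 0.47 and 0.17. Vcam1 was 0.67 and Icam1 0.43 higher in the knockout, while Tnfrsf12a differed by -0.46 and Nfkbia by -0.05. Across all tested genes the 5th percentile of this difference was -0.74 and the 95th was 0.75, so Nfkbiz and the brightest Tnfrsf1a probe lay outside that span and the other tested probes inside it.

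Markers of some cell types moved as well, to be read against the 18.9% of all tested genes that rose after CCl4 and the 18.6% that fell. Of 6 tested endothelial markers, 2 rose after CCl4 (Lyve1 and Stab1). Between the genotypes after CCl4, 2 were lower in the knockout, where 3.6% of all tested genes were called lower and 2.89% higher. They were Lyve1 at -0.84 ± 0.19 (limma adjusted p = 0.0302) and Stab2 at -0.59 ± 0.16 (adjusted p = 0.0481), and the median of the 6 was -0.61. Their summed linear level was 4591 to 4827 in CCl4-treated knockout livers and 5884 to 6557 in CCl4-treated wild-type livers, against 3883 on the knockout vehicle array and 5109 on the wild-type vehicle array. Clec4g was the brightest of the 6 and dominated this sum. The mean log2 value of the 6 was 7.73 to 8.19 in CCl4-treated knockout livers and 8.56 to 8.69 in CCl4-treated wild-type livers. On the vehicle arrays it was 8.10 in the knockout and 7.92 in wild type. By both measures the level was lower in the knockout after CCl4, as Vcam1 was in value. After vehicle the sum was lower in the knockout, while the mean was higher there, as Vcam1 was. Lyve1 had the widest gap of the 6 on the vehicle pair, with 6.12 in the knockout and 5.10 in wild type. The wild-type value was not well above background, and Clec4g and Stab1 were lower in the knockout there. The part of endothelial cells in the Vcam1 values was not tested.

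All 4 tested neutrophil markers rose after CCl4, among them S100a8 at 2.55 ± 0.39 (limma adjusted p = 0.000528), and none was called between the genotypes. Of these, Csf3r and Retnlg were detected on neither vehicle array. They passed the filter only through the wild-type CCl4 arrays, where they lay above vehicle, so the filter itself favoured their rise. Their summed level was 1979 to 7691 in CCl4-treated knockout livers and 2040 to 2763 in CCl4-treated wild-type livers, against 666 on the knockout vehicle array and 532 on the wild-type vehicle array. Of 3 tested monocyte and macrophage markers 2 rose after CCl4, and of 4 Kupffer cell markers 0 did. None of 5 tested hepatocyte markers was called for CCl4 or between the genotypes after CCl4. Of these, the Alb probe was detected on 4 of 8 arrays and passed the filter only through the knockout vehicle array. The part of these cells in the members' rise was not tested.

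Of 5 tested stellate cell markers, 3 rose and 1 fell after CCl4, and 1 was lower in the knockout after CCl4, as were 3.6% of all tested genes. That gene, Col1a1, was not well above background on any knockout CCl4 array or vehicle array and passed the filter only through the wild-type CCl4 arrays, where it was at least 1.57-fold higher than in the knockout (limma adjusted p = 0.00366). Col1a1 also counts among the 3 that rose, a rise that the filter itself favoured. Lrat, the marker that fell, was detected on both vehicle arrays and on 1 CCl4 array. It passed the filter only through the vehicle arrays, where it was high, so the filter itself favoured a fall. The 1 tested T and NK cell marker, Thy1, was detected only on the knockout vehicle array, through which it passed the filter, so its direction is not given. No B cell or cholangiocyte marker passed the detection filter.

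The rest of the pathway was read from lists of 81 other genes, of which 73 had a probe and 42 were tested. After CCl4, as the mean of both genotypes, 11 rose and 5 fell, with a median of 0.16 against -0.02 over all tested genes, of which 18.9% rose and 18.6% fell. Among those that rose, Map3k14, Tnip2, Gadd45b, Cd44, Plau and Ccl2 were detected on neither vehicle array. They passed the filter only through CCl4 arrays, and they enter this count, this median and the counts below where called. Cd44, Plau and Ccl2 are named for this alone. In the knockout 7 rose and 5 fell, where 13% of all tested genes rose and 12.8% fell. Among those that fell there, Cd40 had a tested probe detected on the knockout vehicle array alone. It passed the filter only through that array, where it was high, so the filter itself favoured a fall. Cd40 is likewise named for this alone. In wild type 8 rose and 3 fell, where 12.4% rose and 11.6% fell. Between the genotypes after CCl4, 0 were higher and 2 lower in the knockout, where 2.89% of all tested genes were called higher and 3.6% lower. The median was -0.03 against -0.01 over all tested genes. Of the 2, Gadd45b passed the filter only through the wild-type CCl4 arrays, where it was high. No gene of the lists was called for the difference of the responses. Where a call below was lost without a vehicle array, the contrast had become the response of the other genotype alone.

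Of 10 listed ligands 2 were tested and 7 were never detected. Tnf itself was not detected on any array, with a lowest detection p of 0.292, and neither was Tnfsf12, which encodes TWEAK, the ligand of the Tnfrsf12a product, with a lowest detection p of 0.264. Il18, an inflammasome-processed cytokine, fell by 0.94 ± 0.24 on the log2 scale (SE, limma adjusted p = 0.0106), a call that was lost without the wild-type vehicle array (adjusted p = 0.150). Il1b had 0.74 ± 0.31 without passing the test (adjusted p = 0.0765).

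Among the 5 tested receptors, 1 fell and 0 rose after CCl4, where 18.6% of all tested genes fell and 18.9% rose. Il1rap, the shared signalling chain of interleukin-1 family receptors, fell by 1.76 ± 0.15 (limma adjusted p = 1.04e-05), or 3.40-fold. Tlr2, a receptor for bacterial lipoproteins, had 0.43 ± 0.16 (adjusted p = 0.0515). The Il1rap probe thus moved against the members that rose.

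Among 13 tested adaptors and kinases, 1 rose and 2 fell, where 18.9% of all tested genes rose and 18.6% fell. Map3k14, which encodes the kinase of the non-canonical arm, was at least 1.17-fold higher after CCl4, with neither vehicle array well above background (limma adjusted p = 0.00425). Map3k14 passed the filter only through the knockout CCl4 arrays, where it was high, so the filter itself favoured a rise. The fitted difference for Map3k14 was 0.92 and became 0.58 with a larger offset. Traf6, an adaptor of interleukin-1 and Toll-like receptors, fell by 0.62 ± 0.16 (adjusted p = 0.0105), a call that was lost without the knockout vehicle array, at -0.35 (adjusted p = 0.281). The other call was Ikbkg, named after its values were seen, whose 2 tested probes were called in opposite directions, at -0.46 and 0.68.

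Of 3 tested NF-kB subunits and IkB proteins outside the members, Bcl3 rose. Bcl3 encodes a nuclear IkB protein, as Nfkbiz does, and its difference was 0.76 ± 0.22 (limma adjusted p = 0.0185). The call was lost without the knockout vehicle array (adjusted p = 0.188). Rela, which encodes the p65 subunit, had -0.30 ± 0.17 and did not pass the test (adjusted p = 0.192).

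Of 8 tested deubiquitinases and other inhibitors, 2 rose and 0 fell after CCl4, where 18.9% of all tested genes rose and 18.6% fell. Tnip1, which encodes an A20-binding inhibitor, rose by 0.60 ± 0.15 (limma adjusted p = 0.0103), a call that was lost without the wild-type vehicle array (adjusted p = 0.143). Tnip2, an A20-binding relative, was at least 1.01-fold higher (adjusted p = 0.0479). Tnip2 passed the filter only through the wild-type CCl4 arrays, a group where it lay above vehicle, so the filter itself favoured a rise. Its call stood in 5 of 16 alternatives and was lost without any of 6 single arrays, knockout CCl4 replicates 2 and 3, wild-type CCl4 replicates 1 and 3 and each vehicle array. In the same list Tax1bp1, an adaptor that A20 needs to end signalling, was lower in the knockout after CCl4. Its values were 10.62, 10.75 and 10.74 in CCl4-treated knockout livers, against 11.35, 11.61 and 11.08 in CCl4-treated wild-type livers, a difference of -0.64 ± 0.17 (adjusted p = 0.0481).

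Among 11 tested target genes outside the members, 7 rose and 1 fell, where 18.9% of all tested genes rose and 18.6% fell. Of the risers, Gadd45b, Cd44, Plau and Ccl2 passed the filter only through CCl4 arrays. Cxcl1, a chemokine that draws neutrophils, rose by 3.86 ± 0.22 (14.5-fold, limma adjusted p = 4.13e-07), and Ier3, an immediate early gene, by 2.31 ± 0.26 (4.96-fold, adjusted p = 7.32e-05). Gadd45b, a stress gene that restrains JNK signalling, had 6.08, 5.98 and 5.44 in CCl4-treated knockout livers, against 6.75, 6.80 and 6.58 in CCl4-treated wild-type livers. The vehicle arrays had 5.30 in the knockout and 5.47 in wild type and were not well above background. The probe was detected on 1 knockout and 3 wild-type CCl4 arrays, so it passed the filter only through the group where it was high. The fitted difference after CCl4 was -0.88 ± 0.19 (adjusted p = 0.0240), against knockout values of which 2 were not well above background.

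The Gadd45b genotype call was made in 10 of 16 alternatives and that of Tax1bp1 in 8 of 16. Gadd45b lost it without knockout CCl4 replicate 2 or 3 or wild-type CCl4 replicate 1 or 2, and Tax1bp1 without any knockout CCl4 replicate or wild-type CCl4 replicate 1 or 2. The rise of Gadd45b after CCl4, at least 1.13-fold (limma adjusted p = 0.00374), was lost without the wild-type vehicle array, at 0.54 (adjusted p = 0.153).

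**Figure D4:**
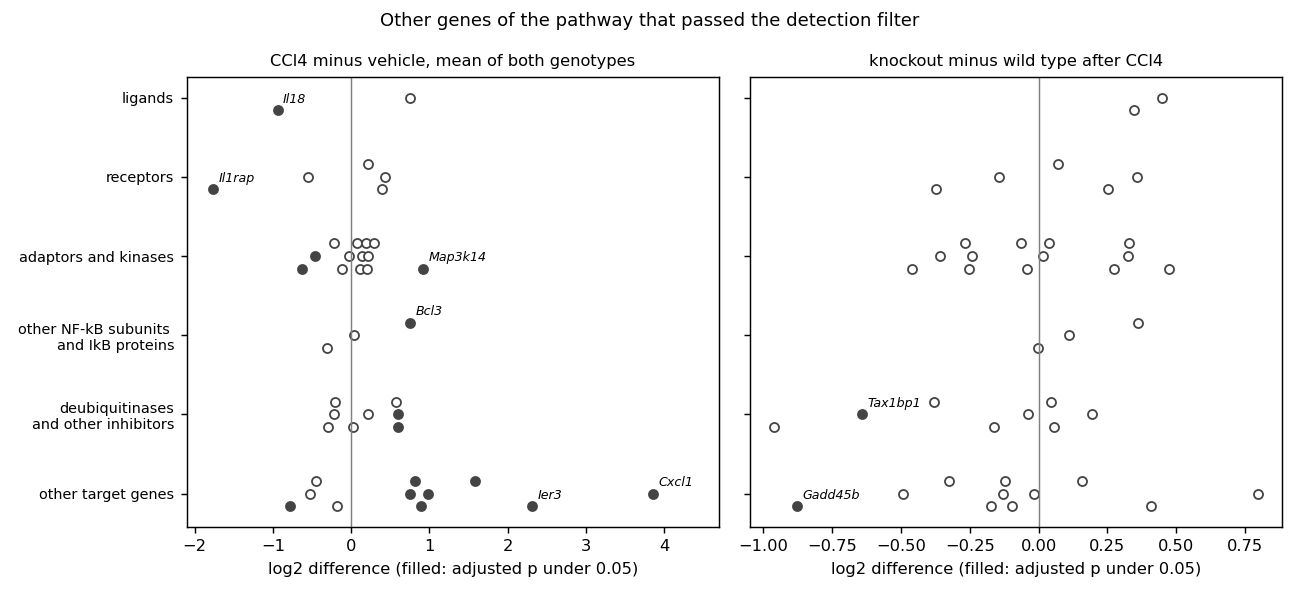
Log2 differences of the 42 tested other genes of the pathway in 6 lists (rows), for CCl4 minus vehicle averaged over the genotypes (left) and for knockout minus wild type after CCl4 (right). Filled points had a limma adjusted p under 0.05. Of the 16 filled points on the left, 11 lie above 0, led by Cxcl1 and Ier3, and the 2 filled points on the right are Gadd45b and Tax1bp1.

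Profiles like those of a pair of members were looked for among all tested genes, by the root mean square difference of normalized log2 values over the 8 arrays, each centred on its own mean. Nfkbiz, with a range of 3.09 over the arrays, was nearest to Mt2, a metallothionein gene, at 0.22, followed by Gpx7 at 0.34 and Ier3 at 0.35. Nfkbia, with a range of 0.98, was nearest to Ecm1 at 0.07, Prepl at 0.11 and Srsf5 at 0.12. Ier3 is itself one of the target genes above. The arrays share their groups, and no test was made.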

How the data were processed

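The members and gene lists were chosen with earlier results of these data known. Total RNA was measured on 8 arrays, grouped by the labels' titles. The deposited raw table holds a linear bead intensity for every probe, not normalized across arrays. Per the file headers, a detection p-value accompanies each of them. A deposited value table held the same intensities minus 1 constant per array, from 48.6 to 56.8, for a reason not known, and served as an alternative. The sources used here name no scanner software, background step or build of the probe design.

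Background correction and quantile normalization used neqc (offset 16) of limma 3.58.1 in R 4.3.3, where negative controls were inferred from detection p. Of 25697 probes, 23978 had 1 symbol, 0 several and 1719 none listed, and 0 symbols needed updating through Entrez identifiers. A probe was kept where all arrays of 1 or more groups detected it (p under 0.01), and each gene was read from its probe of highest mean. A model of the 4 group means used lmFit and eBayes on the 8 arrays, 2-sided, with 4 residual degrees of freedom and Benjamini-Hochberg adjustment over 7257 genes (threshold 0.05). The number of arrays limits the precision. A gene not detected on any array of its lower group has a fold given as a bound, where each array of that group counts at its lowest detected signal or the gene's own, whichever is higher. The code was tested on simulated data.

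All 10 members were described. Of each other list the 2 tested genes with the smallest p for CCl4 were named, with every gene called between genotypes after CCl4. For likeness, the 3 nearest genes were named for the member with the smallest p for CCl4 and for that with the smallest p between genotypes. Markers named were chosen after their values were seen. Alternatives were median scaling, offset 50, the value table, no probe filter, detection on at least 3 arrays, the mean of a gene's probes, each other probe, trended robust eBayes, a replicate block and leaving out each array.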

Additional observations from a re-analysis of the deposited data

Results flagged for a closer look

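The Nfkbiz response to CCl4 differed between the genotypes by the test of the difference itself, at 1.77 ± 0.32 (SE, knockout response minus wild-type response, limma adjusted p = 0.0487). Nfkbiz averaged 8.71 in CCl4-treated knockout livers and 8.61 in CCl4-treated wild-type livers, against 5.76 on the knockout vehicle array and 7.43 on the wild-type vehicle array. The knockout vehicle value was not well above background, and at its lowest detected value the difference was 1.47. The difference was positive in 14 of 14 alternatives, from 1.32 to 2.13, and was called in 5 of them, with adjusted p from 0.0196 to 0.111. With 1 vehicle array per genotype the spread between vehicle livers was not measured.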

How the results depend on the processing

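Tnfrsf12a, Nfkbiz, Icam1 and Vcam1 were called higher after CCl4 under all 16 alternatives for the mean of both genotypes and all 15 in each genotype, and 4 to 5 members were called in each of these contrasts. Replicate numbers did not pair the samples (correlations of same-numbered arrays -0.12, -0.11 and -0.01). Under the replicate block Nfkbia lost its calls (adjusted p = 0.142 for the mean, 0.103 in the knockout) and 7 in place of 11 other pathway genes were called in wild type. Median scaling moved the median of all genes to -0.17 between genotypes and -0.11 for the difference of responses. It called 1 member (Nfkbia) and 6 other pathway genes between genotypes, turned Nfkbiz there to -0.11 and called Tnfrsf1a in wild type (1.02). The other pathway count between genotypes, 2 as reported, was 0 with the value table and with no probe filter, and 0 to 2 without single arrays. For the difference of responses, 0 members were called with detection on 3 arrays, the mean of probes, median scaling, no filter, offset 50 or the replicate block, and 0 to 1 without single arrays. Tnfrsf1a turned negative for CCl4 with the mean of probes (-0.045), the other probes (-0.33, -0.018) and without the wild-type vehicle array (-0.36) or knockout CCl4 replicate 2 (-0.36) or 3 (-0.33), in a range of -0.36 to 0.79 without single arrays. Between genotypes it turned negative with the mean of probes (-0.12), the other probes (-0.49, -0.24) and without knockout replicate 2 (-0.55) or 3 (-0.49), in a range of -0.55 to 0.59. Leaving an array out can change which of its probes has the highest mean. Without 1 array, Tnfrsf12a between genotypes turned to -0.069 (knockout replicate 2) or -0.33 (wild-type replicate 2), in a range of -0.33 to 0.35, and Icam1 to 0.0075 (wild-type replicate 1), in a range of -0.18 to 0.0075. Without a vehicle array, the CCl4 mean over the genotypes became the response of the other genotype alone, as for Tnfrsf1a at -0.36. The cause of the remaining changes was not tested. With no filter, which adds genes to the adjustment, Tnfaip3, Nfkb2 and Relb were tested and not called. Signal over background limits Tnfaip3, Nfkb2, Relb and the vehicle values of Nfkbiz and of the brightest Tnfrsf1a probe. For CCl4, 11 to 19 other pathway genes were called (16 as reported), with 12 under the replicate block and 11 without the knockout vehicle array. Tnip1 (0.0851) and Traf6 (0.0779) also lost their calls under the replicate block, and Bcl3 (0.0752) and Il18 (0.0619) with no filter, by adjusted p.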
